A study of Fraxinus excelsior with 182 samples.

Results

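This account describes 4 genes of protein folding in European ash (Fraxinus excelsior), among 42665 gene models measured in the leaves of 182 Danish trees. They are Fe_g33132, annotated as a heat shock transcription factor by its HSF DNA-binding domain, Fe_g35175.1, annotated as HSP90, Fe_g3105, annotated as a small heat shock protein, and Fe_g36128, annotated as a chloroplast chaperonin 10. The members were taken by identifier, and all 4 were above 0 TPM, a length-normalized unit of transcript abundance, in every tree. Each tree had 1 library from leaf, the labels name no treatment, and all trees formed a single group with no controls. The study picked these genes for their relation to damage by ash dieback in these same trees, so relations between them are not independent of that choice.

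Heat shock transcription factors bind the promoters of chaperone genes and switch them on when proteins unfold, above all in heat. HSP90 is an ATP-driven chaperone that finishes the folding of signalling proteins, and small heat shock proteins hold unfolding proteins without ATP until other chaperones refold them. Chaperonin 10 is the lid of the barrel-shaped chaperonin that folds proteins inside chloroplasts, among them the carbon-fixing enzyme Rubisco.

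TPM is scaled for coding length and to a fixed total, so levels can be set side by side between genes. Every tree's values sum to 1000000, depth per tree is unknown, and no counting interval can be given. A tree had between 31244 and 34889 genes above 0 TPM, and its 10 most abundant genes held between 4.25% and 19.99% of its TPM. No trees had identical values. The enzymes of chlorophyll synthesis Fe_g32180 (coproporphyrinogen oxidase, lowest 515, median 906, highest 1580 TPM) and Fe_g5474 (divinyl reductase, lowest 7.66, median 19.7, highest 34.1 TPM) were present in every tree. The labels list the trees in a pair of ascending runs of tree number, of which the second holds 40 trees, here called label runs 1 and 2. What a run or a tree number stands for is not given.

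The chaperonin was the abundant member and the other 3 were low. The heat shock factor Fe_g33132 had 2.22 TPM in the lowest tree, a median of 3.85 and 6.44 TPM in the highest, with a mean of 3.92 ± 0.84 TPM (SD, n = 182). Its coefficient of variation (SD over mean) of 21.4% was below the 38.02% of the median gene tested, and higher than that of only 13% of the 500 genes of nearest mean level. The regulator was thus the steadiest of the members across trees, and no tree stood apart.

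HSP90 Fe_g35175.1 ran from 0.163 TPM through a median of 0.876 to 38.3 TPM, with a mean of 2.08 ± 4.11 TPM (SD, n = 182). It reached 1 TPM in 79 trees and was above 10 TPM in 8. Its coefficient of variation, 197.5%, was higher than in 95.8% of the 500 genes of nearest mean level, and its skewness was 5.39, against 0.643 for the median gene tested. The 10 trees with the most HSP90 transcript held 42.97% of its summed TPM, which shows a low level in most trees and a tail of a few.

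The small heat shock protein Fe_g3105 had the same shape. Its level was 0.156 TPM in the lowest tree, 1.57 at the median and 52.7 TPM in the highest, with a mean of 3.53 ± 7.01 TPM (SD, n = 182). A level above 10 TPM was found in 10 trees and one under 1 TPM in 45. The coefficient of variation was 198.9%, higher than in 98.4% of the 500 genes of nearest mean level, and the skewness was 4.72. Its 10 highest trees held 45.5% of its summed TPM.

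Chaperonin 10 Fe_g36128 had 93.7, 394.9 and 822 TPM in the lowest, median and highest tree, and a mean of 389 ± 142.97 TPM (SD, n = 182). Its mean exceeded that of 98.9% of the genes tested. The coefficient of variation of 36.7% was close to that of the median gene tested, its skewness was 0.36, and its 10 highest trees held 9.94% of its TPM, against 8.04% for the heat shock factor. In none of the 4 genes did the density of log2(TPM + 1) fall under 0.5 of the lower of 2 peaks with 18 trees or more on each side, so no gene split the trees into separate clusters. The nearest to it were 12 trees above a shallow minimum at 6.31 TPM for HSP90 and 9 trees above 12.98 TPM for the small heat shock protein.

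**Figure D1:**
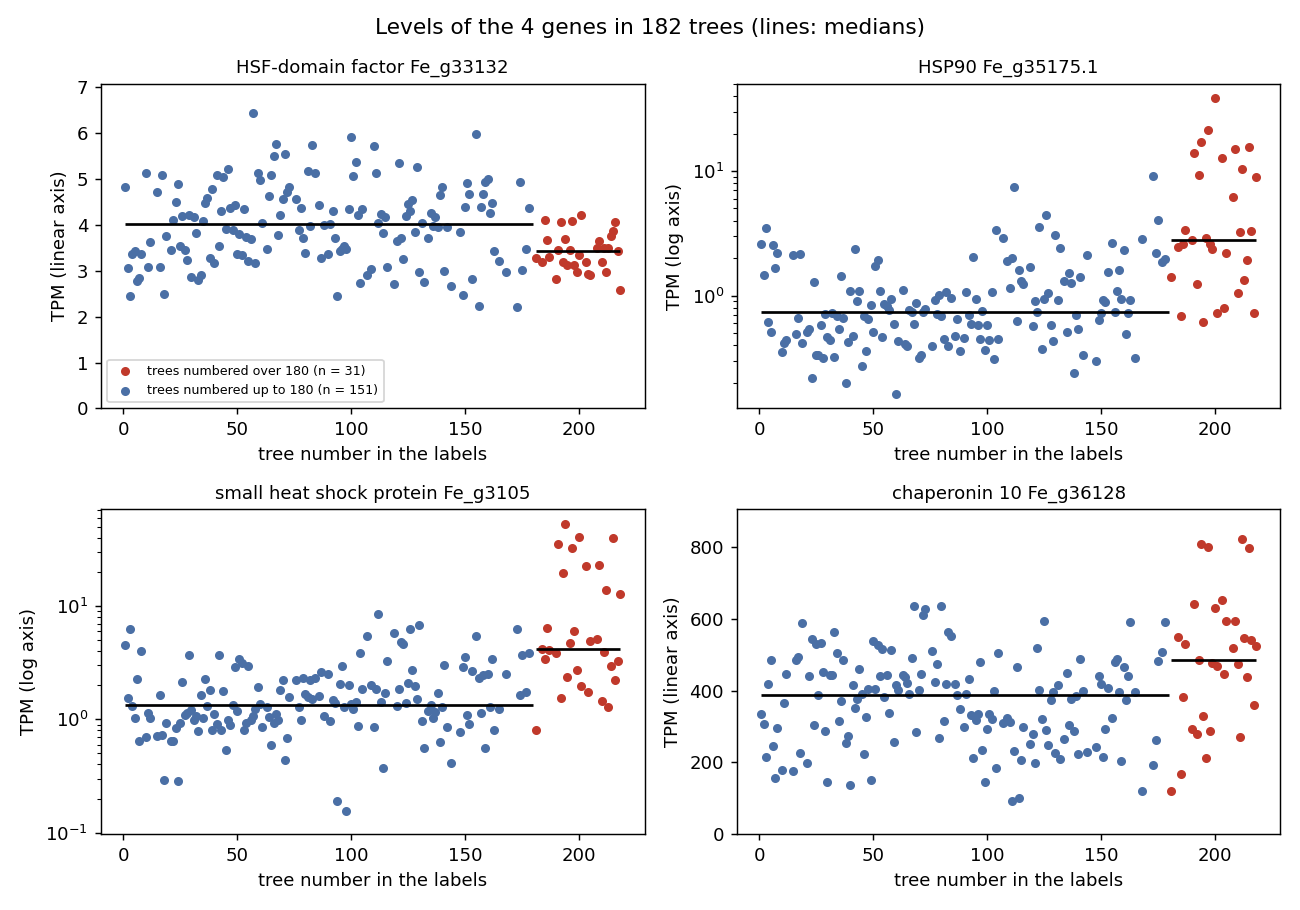
Level in TPM of each of the 4 genes (vertical axes, logarithmic for HSP90 and the small heat shock protein and linear for the others) against tree number in the labels, with trees numbered over 180 in red, the rest in blue, and medians as lines. The tails of HSP90 and the small heat shock protein above 10 TPM lie entirely among the red points, where the heat shock factor stays between 2.58 and 4.21 TPM.

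The trees at the top were nearly the same for HSP90 and the small heat shock protein. Of the 10 highest trees of each gene, 9 were shared. Tree Ash200 had the highest HSP90 level, at 38.3 TPM, with 40.6 TPM of the small heat shock protein. Tree Ash194 had the highest small heat shock protein level, at 52.7 TPM, with 17.05 TPM of HSP90. Both genes were thus high together, but the order among these trees differed.

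The next trees were Ash197 with 21.5 TPM of HSP90 and 32.6 of the small heat shock protein, Ash215 with 15.6 and 39.6 TPM, and Ash209 with 14.9 and 23.1 TPM in the same order of genes. Ash191 had 14.002 and 35.1 TPM, Ash203 had 12.7 and 22.4 TPM, and Ash212 had 10.5 and 13.9 TPM. The list closed with Ash193, at 9.21 TPM of HSP90 and 19.5 TPM of the small heat shock protein. The tenth HSP90 tree was Ash173, with 9.08 TPM of HSP90, 6.25 TPM of the small heat shock protein and, at 2.22 TPM, the lowest heat shock factor level of all trees. The tenth tree for the small heat shock protein was Ash218, at 12.6 TPM.

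Chaperonin 10 was also high in most of these trees. Its highest level, 822 TPM, was in Ash212, and Ash194, Ash197 and Ash215 followed with 807, 800.4 and 798 TPM. Of its 10 highest trees, 7 were numbered over 180. In Ash173 it had 193.2 TPM, below its median. None of the 10 trees with the most heat shock factor was among the 10 highest of another member, and its highest tree, Ash57 with 6.44 TPM, had 0.769 TPM of HSP90 and 1.06 TPM of the small heat shock protein.

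The libraries of the 10 trees with the most small heat shock protein did not stand apart. Their correlation with the median profile of all trees was between 0.951 and 0.964, where the median tree had 0.959, and their 10 most abundant genes held between 5.22% and 8.02% of TPM. The low ends did include libraries that stood apart. The 3 trees lowest in the small heat shock protein, Ash98, Ash94 and Ash24 with 0.156, 0.189 and 0.287 TPM, had correlations with the median profile of 0.857, 0.797 and 0.800 and 10-gene shares of 11.5%, 19.99% and 11.9%. The 3 lowest in chaperonin 10, Ash111, Ash114 and Ash181 with 93.7, 101.04 and 120.5 TPM, had correlations of 0.870, 0.825 and 0.852. Ash94 was also among the 3 lowest in the heat shock factor, at 2.44 TPM. The part of these libraries in the low values, and of the library of Ash173 in its values, was not tested.

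High trees carried high numbers in the labels. Of the 10 highest HSP90 trees 9, and of the 10 highest small heat shock protein trees 10, were numbered over 180, as were 31 of the 182 trees. HSP90 was above 10 TPM in 8 of the 31 trees numbered over 180 and in 0 of the other trees, and the small heat shock protein in 10 of 31 and 0 of the others. The limit of 180 comes from blocks of 60 tree numbers that were set after these high trees had been seen, so these counts describe the tail and do not test it.

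Over 180, HSP90 had 0.615 TPM in the lowest tree, 2.79 at the median and 38.3 in the highest, against 0.163, 0.738 and 9.08 TPM in trees numbered up to 180. The small heat shock protein had 0.802, 4.14 and 52.7 TPM over 180, against 0.156, 1.35 and 8.47 TPM up to 180. The ranges overlapped, but the medians over 180 were above the upper quartiles of the rest, which were 1.30 TPM for HSP90 and 2.26 TPM for the small heat shock protein. Chaperonin 10 had a median of 485 TPM over 180 and 388 TPM up to 180. Its ranges overlapped, but 6 of the 31 trees over 180 were above the highest of the rest, at 635.5 TPM.

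The heat shock factor had a lower median and a narrower range over 180. Its levels were 2.58, 3.44 and 4.21 TPM in the lowest, median and highest tree over 180, against 2.22, 4.02 and 6.44 TPM up to 180. Its SD was 0.42 TPM over 180 (n = 31) and 0.87 TPM up to 180. No tree numbered over 180 had more than 4.21 TPM, and the tail of the chaperones had no counterpart in this gene.

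The rise with tree number was gradual below 180 for HSP90 and the small heat shock protein. In trees up to 60, over 60 to 120, over 120 to 180 and over 180 the HSP90 median was 0.651, 0.705, 0.935 and 2.79 TPM. In the same blocks, of 56, 51, 44 and 31 trees, the small heat shock protein median was 1.101, 1.47, 1.74 and 4.14 TPM. Across all 182 trees, log2(TPM + 1) of HSP90 had an r of 0.49 with the rank of tree number (limma adjusted p = 1.02e-09) and that of the small heat shock protein an r of 0.48 (limma adjusted p = 1.73e-09). These 2 of the 4 members rose with tree number, where 5.96% of the 31003 genes tested rose and 14.5% fell. Tree number was not among the planned tests, and the high trees had been seen. The p-values with tree number, here and below, therefore describe the rise and do not test it.

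Chaperonin 10 (r = 0.12, limma adjusted p = 0.261) and the heat shock factor (r = -0.15, limma adjusted p = 0.164) did not pass in limma. On TPM the chaperonin had an r of 0.19 and a rho of 0.12 with tree number (permutation p = 0.012 and 0.095), and the heat shock factor an r of -0.17 and a rho of -0.15 (permutation p = 0.026 and 0.049). On TPM, Spearman's rho with tree number was 0.46 for HSP90 and 0.46 for the small heat shock protein, both at the smallest p that 100000 permutations can give, 1e-05. Within trees numbered up to 180 alone it was 0.25 for HSP90 (permutation p = 0.0019) and 0.26 for the small heat shock protein (permutation p = 0.0018). Within label run 2, which had 3 trees over 180, the rho values were 0.10 and 0.07 (permutation p = 0.53 and 0.68, n = 40) but r was 0.51 and 0.44 (permutation p = 0.0011 and 0.0038). Within label run 1 the rho values were 0.63 and 0.59 and r was 0.41 and 0.40 (permutation p = 1e-05 for each). The number of genes above 0 TPM differed little by tree number, with a median of 33650 in trees over 180 and 33705 in the rest. So did the 10-gene share, with a median of 5.99% over 180 and 6.18% in the rest. Factors of median-of-ratios scaling were not compared by tree number.

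The chaperonin differed between label runs. Fe_g36128 had a median of 248 TPM in label run 2 and 417 TPM in label run 1, and its log2(TPM + 1) was lower in run 2 by a fitted -0.59 ± 0.10 (SE, limma adjusted p = 1.89e-08). It was the only member to pass, in a comparison in which 65.4% of the genes tested passed and 39.6% were lower in run 2. The HSP90 median was 1.51 TPM in run 2 and 0.741 TPM in run 1, without passing (limma adjusted p = 0.158). For the small heat shock protein the medians were 1.89 and 1.53 TPM (limma adjusted p = 0.765). For the heat shock factor they were 3.73 and 3.92 TPM (limma adjusted p = 0.211). Libraries of run 2 also had lower correlations with the median profile (median 0.932 in run 2 and 0.960 in run 1) and larger 10-gene shares (median 7.30% in run 2 and 5.70% in run 1).

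Over all trees, chaperonin 10 fell with the share of TPM held by the 10 most abundant genes (r = -0.47, rho = -0.42, permutation p = 1e-05 for each). The heat shock factor did so more weakly (r = -0.28, rho = -0.27, permutation p = 0.00011 and 0.00021). HSP90 had an r of 0.01 and a rho of 0.22 (permutation p = 0.93 and 0.0031), and the small heat shock protein an r of -0.08 and a rho of 0.04 (permutation p = 0.25 and 0.61). With the number of genes above 0 TPM, the only relation with a p of 0.05 or less among 4 was that of the small heat shock protein by rank (rho = 0.20, permutation p = 0.0066, r = 0.04). These are 8 relations in all, and leaving out the 2 trees farthest from the median of the library measure gave r of -0.47 for the chaperonin and -0.23 for the factor with the 10-gene share. Since leaf samples mix cell types, fewer cells of a type and less RNA per cell cannot be told apart in any of these levels.

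Relations between the members were measured as 6 pairs. The pair of HSP90 and the small heat shock protein was the closest, with a Pearson r of 0.89 and a Spearman rho of 0.55 on TPM (permutation p = 1e-05 for each, n = 182). Without the 2 trees farthest from the median HSP90 level, Ash200 and Ash197, r was 0.91. On log2(TPM + 1) with HSP90 as the explaining gene, r was 0.84 and the small heat shock protein rose by 0.83 ± 0.04 (SE) per SD of HSP90 (limma adjusted p = 1.31e-45 over all genes). The lower rho shows that the agreement was tighter in the tail than among the many trees near 1 TPM.

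That difference was seen directly by tree number. In the 31 trees numbered over 180 the rho of HSP90 and the small heat shock protein was 0.86, against 0.38 in the other trees. Within the blocks up to 60, over 60 to 120 and over 120 to 180 it was 0.34, 0.26 and 0.41, and it passed p = 0.05 in all but the middle block (permutation p = 0.063). It was 0.46 in label run 2 and 0.60 in label run 1. The relation was therefore positive in every set of trees tried, and its rho was higher over 180. The slope on HSP90 was larger there by 0.39 ± 0.09 (SE, limma adjusted p = 0.000148). Of all genes, 32.6% had a larger and 20.6% a smaller slope on HSP90 over 180. Since the limit of 180 was set after the high trees of both genes had been seen, this difference describes the sets and does not test them.

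The heat shock factor was lower where both chaperones were higher. HSP90 and Fe_g33132 had a rho of -0.32 (permutation p = 3e-05) and an r of -0.19 on TPM (permutation p = 0.0093), and an r of -0.31 on the log2 scale with HSP90 as the explaining gene (limma adjusted p = 0.000504). The small heat shock protein and Fe_g33132 had a rho of -0.28 (permutation p = 0.00011) and an r of -0.15 on TPM (permutation p = 0.038), and an r of -0.25 on the log2 scale (limma adjusted p = 0.00679). Leaving out the 2 farthest trees gave r of -0.24 for HSP90 and -0.16 for the small heat shock protein.

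By rank, both negative relations were not detectable over 180 and passed up to it. In the 31 trees over 180 the rho with the heat shock factor was 0.05 for HSP90 and 0.02 for the small heat shock protein (permutation p = 0.77 and 0.92). In trees up to 180 it was -0.21 for HSP90 (permutation p = 0.0094) and -0.17 for the small heat shock protein (permutation p = 0.039). On the log2 scale the small heat shock protein and the factor had an r of -0.20 there. In limma this passed with the factor as the explaining gene (adjusted p = 0.0328). It did not pass with the small heat shock protein as the explaining gene (adjusted p = 0.0582). With the block of tree numbers as a covariate the small heat shock protein no longer passed on the log2 scale (r = -0.13, limma adjusted p = 0.267). For HSP90 the slope of the factor was larger over 180 by 0.13 ± 0.04 (SE, limma adjusted p = 0.00707), where 32.6% of all genes had a larger and 20.6% a smaller slope. For the small heat shock protein the difference of 0.09 ± 0.04 did not pass (limma adjusted p = 0.171), where 1.74% and 8.91% of all genes did. In label run 2 the small heat shock protein and the factor had a rho of 0.04 (permutation p = 0.8, n = 40), and in label run 1 one of -0.39.

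With HSP90 as the explaining gene, 1 of the other 3 members rose and 1 fell, where 7.6% of all genes rose and 16.6% fell. With the small heat shock protein, 2 of 3 rose and 1 fell, against 14.4% and 8.23% of all genes. With the heat shock factor, 0 rose and 2 fell, against 31.7% and 10.5%, and with chaperonin 10 only the small heat shock protein rose, against 35.4% of genes that rose and 35.8% that fell.

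**Figure D2:**
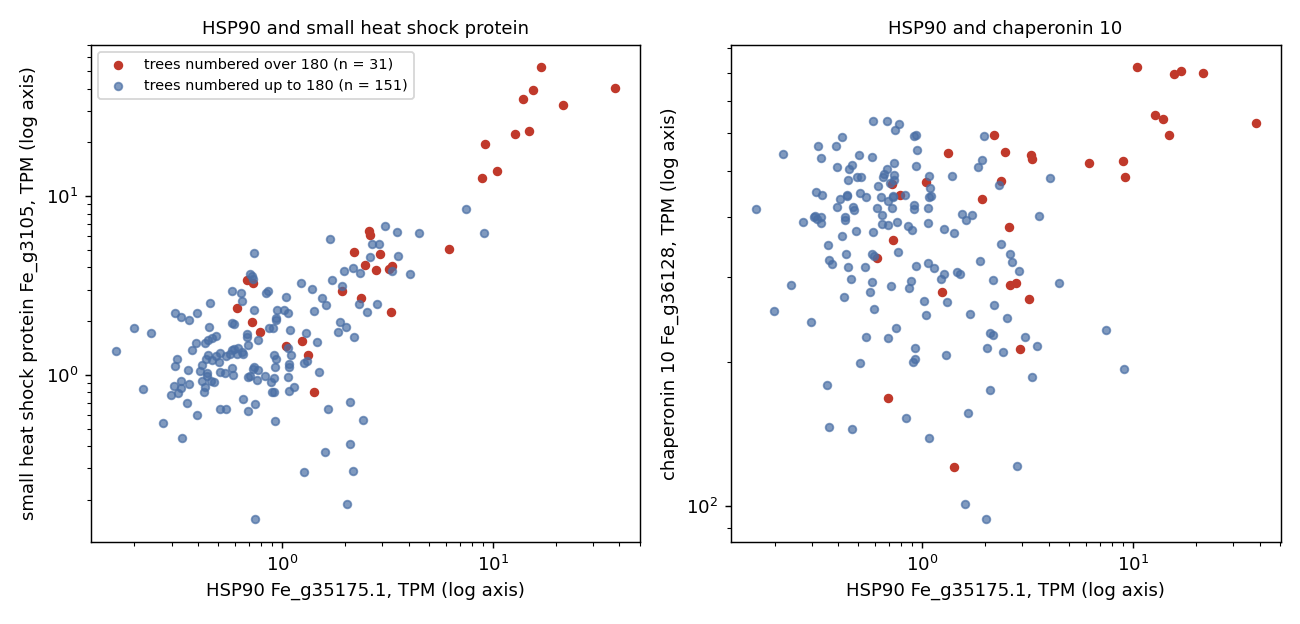
HSP90 level on the horizontal axis against the small heat shock protein (left) and chaperonin 10 (right), in TPM on logarithmic axes, with 1 point per tree, red for trees numbered over 180 and blue for the rest. The red points rise in both panels, while the blue points rise in the left panel (rho = 0.38) and fall in the right (rho = -0.28).

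Chaperonin 10 related to HSP90 in opposite directions in the 2 sets of trees. Over all 182 trees the rho was -0.03 (permutation p = 0.7), while r on TPM was 0.37 (permutation p = 1e-05) and r on the log2 scale 0.14 (limma adjusted p = 0.161). Over 180, rho was 0.70 (permutation p = 4e-05, n = 31). Up to 180 it was -0.28 (permutation p = 0.00049). A value over all trees therefore mixes a rising set and a set that fell with its label runs pooled. It also holds the difference in level between the sets.

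The relation up to 180 was negative in each of its blocks, with rho of -0.33, -0.44 and -0.11 in trees up to 60, over 60 to 120 and over 120 to 180 (permutation p = 0.013, 0.0012 and 0.49). Within a single label run rho did not pass, at -0.11 in the 37 trees of run 2 up to 180 (permutation p = 0.51) and -0.15 in those of run 1 (permutation p = 0.12). On TPM, r was -0.16 in those trees of run 2 (permutation p = 0.34) and passed at -0.27 in those of run 1 (permutation p = 0.0031). The positive relation over 180 stood at a rho of 0.69 in its 28 trees of label run 1 and of 0.64 without the 2 trees farthest from the median HSP90 level. The chaperonin's slope on HSP90 was larger over 180 by 0.59 ± 0.10 (SE, limma adjusted p = 3.92e-07), in a comparison in which 32.6% of all genes had a larger and 20.6% a smaller slope over 180. A difference of slopes with HSP90 was therefore common among genes.

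The small heat shock protein and chaperonin 10 had a rho of 0.14 (permutation p = 0.056), an r of 0.45 on TPM (permutation p = 1e-05) and an r of 0.28 on the log2 scale (limma adjusted p = 0.00117). Over 180 the rho was 0.64 (permutation p = 0.00014) and up to 180 it was -0.03 (permutation p = 0.72). The slope of the chaperonin was larger over 180 by 0.32 ± 0.10 (SE, limma adjusted p = 0.0292), where 1.74% of all genes had a larger and 8.91% a smaller slope. Taken the other way, with chaperonin 10 as the explaining gene, the slope was larger over 180 by 0.93 ± 0.12 (SE, limma adjusted p = 3.61e-09) for HSP90 and by 0.82 ± 0.13 (SE, limma adjusted p = 1.72e-05) for the small heat shock protein. Of all genes, 0.216% had a larger and 0.0645% a smaller slope on the chaperonin over 180. On the heat shock factor, 0 of the other 3 members and 0.00323% of all genes differed in slope. By rho with the label runs pooled, the chaperonin up to 180 thus fell with HSP90 but showed no detectable relation with the small heat shock protein. Within a single label run up to 180, its rho with HSP90 did not pass.

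The heat shock factor and chaperonin 10 showed no detectable relation. Their rho was -0.02 (permutation p = 0.81) and their r on the log2 scale was 0.02 (limma adjusted p = 0.806). Over 180 the rho was -0.002 (permutation p = 0.99) and up to 180 it was 0.06 (permutation p = 0.47).

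Each member was then set against every other gene with at least 1 TPM in 19 trees or more. The counts below are of genes with a limma adjusted p of 0.05 or less for the slope on that member, and r is on log2(TPM + 1). The heat shock factor Fe_g33132 had 9842 genes that rose with it and 3242 that fell, but its highest r was 0.54 and only 5 genes, 0.0161% of those tested, reached 0.5. With median-of-ratios scaling the counts were 1625 and 1931, so that the excess of rising genes was not kept. The 2 genes closest to it were Fe_g13600 (r = 0.54) and Fe_g38219 (r = 0.53), and the 2 most opposed were Fe_g21667 (r = -0.47) and Fe_g45515 (r = -0.45). Under 5 principal components as covariates the closest pair still passed (limma adjusted p = 0.0131 and 0.000154) and the most opposed pair did not (0.155 and 0.0864). None of the 4 passed in label run 2 alone or over 180 alone. The sources used here give no annotation for these.

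HSP90 had 2355 genes that rose with it and 5160 that fell, and 4407 and 4268 under median-of-ratios scaling. Few of them were close, with 69 genes at an r of 0.5 or more and 30 at -0.5 or less, together 0.319% of the genes. Fe_g44882.1 came first (r = 0.86) and Fe_g3446 next (r = 0.84), and Fe_g7622.2 (r = -0.66) and Fe_g7621 (r = -0.65) were the most opposed. Adjacent identifiers hold the last pair. The sources give no annotation for any of them.

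Fe_g44882.1 followed both chaperones. It had 1.69 TPM in the lowest, 4.15 in the median and 14.9 in the highest tree over 180, against 0.964, 1.99 and 5.59 TPM up to 180. Of its 10 highest trees, 9 were among the 10 highest for HSP90 and 10 among those for the small heat shock protein. Its r with HSP90 was 0.91 over 180 and 0.68 up to 180. The closest and most opposed genes of each member were picked by their r over these same trees. Their shared trees and the sign of their r within parts of the trees follow in part from that choice, and are not separate evidence.

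Fe_g3446 had an r with HSP90 of 0.80 over 180 and 0.81 up to 180. Its level was low, at a median of 1.43 TPM over 180 and 0.407 TPM up to 180. Fe_g7622.2 was low where HSP90 was high, at 0.351, 0.979 and 3.44 TPM (lowest, median and highest) over 180 and 0.435, 4.20 and 14.1 TPM up to 180. Of its 10 lowest trees, 7 were among the 10 highest for HSP90. Fe_g7621 had a median of 0.840 TPM over 180 and 5.16 TPM up to 180. Both falling genes had a negative r in each set, at -0.73 and -0.68 over 180 and -0.57 and -0.53 up to 180. In label run 2 alone neither passed (r = -0.21 and -0.23, limma adjusted p = 0.9999 for each).

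The small heat shock protein had 4459 genes that rose with it and 2553 that fell, and 4022 and 3808 under median-of-ratios scaling. An r of 0.5 or more was found for 0.458% of the genes and one of -0.5 or less for 0.103%, together 0.561%. Its closest genes were again Fe_g44882.1 (r = 0.88) and then Fe_g40515 (r = 0.86), and its most opposed were Fe_g43888 (r = -0.72) and Fe_g43889 (r = -0.70), which have adjacent identifiers and no annotation in the sources used here.

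Fe_g40515 had 0.299, 2.10 and 15.98 TPM (lowest, median and highest) over 180 and 0.028, 0.540 and 5.24 TPM up to 180, and shared 9 of its 10 highest trees with the small heat shock protein. Fe_g43888 had 4.65, 12.8 and 74.3 TPM over 180 and 11.1, 32.4 and 86.6 TPM up to 180. Of its 10 lowest trees, 8 were among the 10 highest for the small heat shock protein. Fe_g43889 had a median of 20.04 TPM over 180 and 56.1 TPM up to 180. The r of Fe_g43888 and Fe_g43889 with the small heat shock protein was negative within label run 2 (-0.70 and -0.71) and within label run 1 (-0.73 and -0.70).

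Aside from each other, 65 genes had an r of 0.5 or more with both HSP90 and the small heat shock protein, which is 95.6% of the HSP90 genes and 46.1% of those of the small heat shock protein. On the negative side 13 were shared, 43.3% and 40.6%. As these 2 genes were themselves correlated at 0.84, their sets of partners are not separate evidence.

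Chaperonin 10 had the broadest relations and none of these partners on the positive side. With it, 10964 genes rose and 11108 fell, and 3556 reached an r of 0.5 and 2483 an r of -0.5, together 19.5%. None of the 69 genes at 0.5 or more with HSP90, nor of those with the small heat shock protein, was among its 3556, which were 11.5% of all genes. At -0.5 or less, 0 genes of HSP90 and 1 of the small heat shock protein were shared with the chaperonin, where 8.01% of all genes were at -0.5 or less with it. Its closest genes were Fe_g26615 (r = 0.77) and Fe_g41609 (r = 0.77), both abundant at medians of 177.3 and 647 TPM, and its most opposed were Fe_g40089 (r = -0.73) and Fe_g29987 (r = -0.73), none of them annotated in the sources used here.

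These 4 genes, picked by their r over all trees, had the same sign of r with the chaperonin over 180, up to 180 and in each label run. The chaperonin shared more of its variation with the main axis of variation between trees than the other members did. The first principal component, which held 30.5% of the variance of all genes, explained 41.8% of the variance of the chaperonin, 6.83% of that of the heat shock factor, 2.30% of that of HSP90 and 0.114% of that of the small heat shock protein. With the first 5 components as covariates, 840 genes rose and 328 fell with the chaperonin, and the r of Fe_g26615 and Fe_g41609 was 0.42 and 0.35. The opposed genes Fe_g40089 (r = -0.22, limma adjusted p = 0.0683) and Fe_g29987 (r = -0.17, limma adjusted p = 0.218) no longer passed. The components were computed from all genes tested, the chaperonin and its partners included. Fewer calls with them as covariates therefore cannot show what the breadth of the relation depended on.

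**Figure D3:**
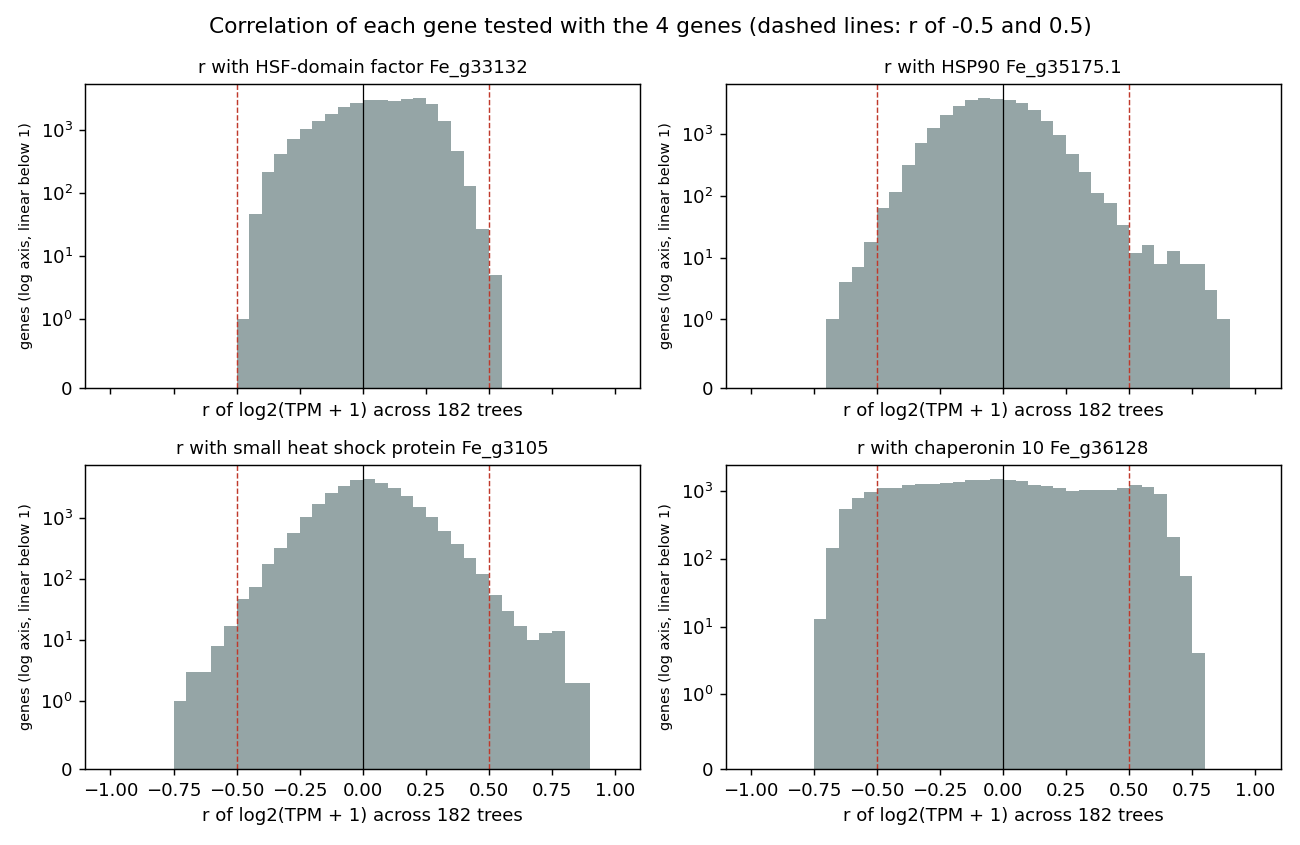
Number of genes (vertical axes, logarithmic) by r of log2(TPM + 1) with each of the 4 genes across 182 trees (horizontal axes), with dashed lines at -0.5 and 0.5. The chaperonin has a flat, wide distribution, and HSP90 and the small heat shock protein have a narrow bulk with a thin positive tail that reaches 0.86 and 0.88.

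Genes of related functions were taken from the annotations that the study gave to its damage-related genes, and like the members they were chosen on these trees. They formed 8 lists with 36 genes in all. The clock and light list also holds Fe_g10721, annotated as an embryonic flower protein and not as a clock or light gene. Against HSP90, 1 of the 36 rose and 10 fell, set beside 7.6% and 16.6% of all genes. Both prohibitins, scaffold proteins of the inner mitochondrial membrane, fell (Fe_g3120, r = -0.44, and Fe_g3121, r = -0.30), as did 3 of 4 clock and light signalling genes, 3 of 6 protein turnover genes, 1 of 6 ethylene, calmodulin and AP2 factors and 1 of 6 JOINTLESS-like MADS-box genes. The 3 proteases and the 5 SOC1-like and SVP-like MADS-box genes had no calls.

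Fe_g30298, an F-box protein of the ZEITLUPE family, which in Arabidopsis marks clock proteins for degradation and is known as a partner of HSP90, had an r of -0.59 with HSP90 (limma adjusted p = 1.48e-15). It had an r of -0.54 with the small heat shock protein (limma adjusted p = 5.75e-13) and of 0.38 with the heat shock factor (limma adjusted p = 1.2e-05). With HSP90 the r was -0.60 over 180 and -0.37 up to 180, and -0.53 under median-of-ratios scaling. It was the list gene most opposed to both chaperones. The CONSTANS-like gene Fe_g45829 (r = -0.39), the embryonic flower protein Fe_g10721 (r = -0.31) and the ethylene response factor Fe_g32756 (r = -0.30) also fell with HSP90. Of these, Fe_g45829 was low, at a mean of 0.867 TPM.

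The gene that rose was Fe_g40731, a 9-cis-epoxycarotenoid dioxygenase, the enzyme class that commits carotenoids to abscisic acid, the hormone of drought responses. Its level was low, at a mean of 0.930 TPM. Its r was 0.48 with HSP90 (limma adjusted p = 2.25e-09) and 0.59 with the small heat shock protein (limma adjusted p = 7.45e-16). With the small heat shock protein it was 0.59 over 180 and 0.43 up to 180. With the heat shock factor it was -0.28 (limma adjusted p = 0.000845).

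Against the small heat shock protein, 3 of the 36 list genes rose and 5 fell, beside 14.4% and 8.23% of all genes. The falling genes were both prohibitins (r = -0.41 and -0.22 for Fe_g3120 and Fe_g3121), 2 of 4 clock and light genes, of which Fe_g10721 had an r of -0.32, and Fe_g30298. Beside Fe_g40731, 2 of 6 JOINTLESS-like MADS-box genes rose. No ethylene, calmodulin or AP2 factor, protease or SOC1-like or SVP-like gene passed.

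Against the heat shock factor, 17 list genes rose and 2 fell, beside 31.7% and 10.5% of all genes, but only 4 rose and 1 fell under median-of-ratios scaling. The rising genes were 3 of 4 clock and light genes, 4 of 6 ethylene, calmodulin and AP2 factors, 4 of 6 protein turnover genes, 3 of 6 JOINTLESS-like genes and 1 each of the 2 prohibitins, 3 proteases and 5 SOC1-like and SVP-like genes. Among them Fe_g45829 (r = 0.42), the B-box gene Fe_g21102 (r = 0.38) and the pseudo-response regulator Fe_g28326 (r = 0.31) are of the clock and light list, and under that scaling only Fe_g45829 of these 3 passed (limma adjusted p = 0.0128, 0.074 and 0.223). Of the plastid pigment and isoprenoid enzymes, 2 of 4 fell.

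Against chaperonin 10, 10 list genes rose and 10 fell, beside 35.4% and 35.8% of all genes. All 4 plastid enzymes rose, led by Fe_g39558, a kinase of the plastid isoprenoid pathway (r = 0.51), and the chlorophyll enzyme Fe_g32180 (r = 0.41). The other rising genes were 2 of 4 clock and light genes, with Fe_g21102 at r = 0.34, 2 of 5 SOC1-like and SVP-like genes, 1 of 6 JOINTLESS-like genes and 1 of 6 ethylene, calmodulin and AP2 factors. The falling genes were 3 of 6 protein turnover genes, with the RING protein Fe_g29324 at r = -0.42, 2 of 3 proteases, Fe_g6658 (r = -0.43) and Fe_g25712 (r = -0.32), 3 of 6 ethylene, calmodulin and AP2 factors, with Fe_g44878 at r = -0.36, 1 prohibitin and the embryonic flower protein Fe_g10721 (r = -0.38). With 5 principal components as covariates, 0 of the 36 passed in limma, and 2 had an unadjusted p under 0.05.

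Identifiers next to each member were looked at for shared variation, since adjacent numbers can mark adjacent genes. None of the 4 nearest identifiers of HSP90 passed in limma, where 24.2% of all genes did, the highest r being 0.12 for Fe_g35174.1. By rank on TPM, Fe_g35174.1 had a rho of 0.21 and Fe_g35177 one of 0.16 (permutation p = 0.0042 and 0.031), with r of 0.04 and 0.02. Next to the small heat shock protein, Fe_g3106 (r = -0.21, limma adjusted p = 0.0276) and Fe_g3107.1 (r = 0.19, limma adjusted p = 0.0405) passed, in opposite directions, in a comparison where 22.6% of all genes did. By rank on TPM their rho was -0.17 and 0.26 (permutation p = 0.020 and 0.00034).

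Fe_g33133, the identifier after the heat shock factor, had an r of 0.44 with it (limma adjusted p = 2.48e-07, where 42.2% of all genes passed) and a rho of 0.47 on TPM (permutation p = 1e-05). For the chaperonin, Fe_g36129 (r = 0.40), Fe_g36131 (r = 0.32) and Fe_g36126.1 (r = -0.31) passed at limma adjusted p of 4.2e-08, 2.74e-05 and 5.62e-05, in a comparison where 71.2% of all genes did. These are 16 relations, of which 1 could not be tested by limma because Fe_g33130 was above 0 in only 18 trees.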

How the data were processed

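Leaf RNA of 182 trees had been read as 100 bp Illumina reads, 1 library per tree. By the series' design text, the authors used Trimmomatic for trimming and Salmon 0.8 for quantification on coding sequence models of their new genome. The study's methods name tximport in R 4.3.3 for the import. The deposited unit is TPM per gene model. Salmon divides reads among similar transcripts, so values of close paralogs, which heat shock genes often have, are uncertain. Depth is unknown. Coding sequences and damage scores were not used here.

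The 4 members and the 8 lists were chosen with earlier results of these data known. Pairs of members were compared with Pearson's r and Spearman's rho on TPM, with two-sided permutation tests of 100000 resamples (smallest p 1e-05). All genes that reached 1 TPM in 19 trees or more (31003 genes, all 4 members included) entered limma 3.58.1 (eBayes with trend, R 4.3.3) on log2(TPM + 1), explained by the standardized log2(TPM + 1) of 1 member. Slopes are per SD of that member, and this scale understates changes of low genes. Genes with p adjusted by Benjamini and Hochberg over all genes at 0.05 or below were called. Differences of slopes came from an interaction with an indicator of tree numbers over 180. The code of the fit was run on values shuffled over trees gene by gene, with known correlations added. The shuffle removes relations between genes and any structure by label run or tree number, so it cannot test the calls in these data. Named genes were, per member, the 2 highest and 2 lowest r, list genes at an absolute r of at least 0.3 (up to 3 per list) and the 2 nearest identifiers on each side. Alternatives were the pseudocount, the filter, median-of-ratios scaling, ranks, 5 principal components, genes detected, leaving out 2 trees, label runs and, chosen after seeing the data, blocks of 60 tree numbers. Trees were treated as independent, relatedness was not modelled, and p-values measure the spread between trees with 1 library each. Computations used Python 3.11.15, numpy 2.4.6, pandas 2.3.3 and scipy 1.17.1.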

Additional observations from a re-analysis of the deposited data

Results flagged for a closer look

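The slope of 1 member on another, fitted by limma per SD of the explaining member on log2(TPM + 1), differed between the 31 trees numbered over 180 and the other trees in 7 of the 12 ordered pairs. The groups are spans of a label set after the high trees had been seen, not groups of the study. On HSP90 Fe_g35175.1, the slope over 180 exceeded that of the rest by 0.592 for chaperonin 10 Fe_g36128, by 0.391 for the small heat shock protein Fe_g3105 and by 0.127 for the heat shock factor Fe_g33132. On the small heat shock protein, the difference was 0.32 for HSP90 and 0.315 for chaperonin 10. On chaperonin 10, it was 0.931 for HSP90 and 0.824 for the small heat shock protein. No slope on the heat shock factor differed. The calls on HSP90 were 3 of 3 members, all with a larger slope over 180, beside 32.6% of all genes with a larger and 20.6% with a smaller one. They were 2 of 3 on the small heat shock protein, beside 1.74% and 8.91%, 2 of 3 on chaperonin 10, beside 0.216% and 0.0645%, and 0 of 3 on the heat shock factor, beside 0.00323% in either direction. The limma adjusted p-values of these 7 differences lay between 3.61e-09 and 0.0292. The SD of each gene differed between the sets, and its part in these differences was not tested.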

How the results depend on the processing

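The relation of HSP90 and the small heat shock protein was positive in every set of trees and under every alternative run. By rho it did not pass in the block of trees over 60 to 120 (permutation p = 0.063) or in trees of label run 2 up to 180 (rho = 0.32, permutation p = 0.055), and in limma not in the block over 120 to 180 (adjusted p = 0.0715 on HSP90 and 0.0567 on the small heat shock protein). Both relations of these genes with the heat shock factor kept their direction and passed under median-of-ratios scaling. Depth is unknown, so the counting error of levels near 1 TPM cannot be given. The median of the chaperonin was 248 TPM in label run 2. Fewer trees in a label run or over 180 give a test fewer samples, and the causes of the other changes were not tested.

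The rho of HSP90 and chaperonin 10 became 0.0261 with median-of-ratios scaling, 0.0514 in label run 2, 0.0751 in label run 1, 0.10 with 5 principal components and 0.70 over 180, and passed at -0.28 up to 180 and at -0.16 with the block of tree numbers as a covariate. Up to 180 their r was -0.31 on TPM and -0.34 in limma, and by ranks in limma over all trees it was -0.0289. The rho of the small heat shock protein and chaperonin 10 passed at 0.15 with scaling, 0.40 in label run 2, 0.16 with 5 principal components, 0.16 with genes detected and 0.64 over 180. Up to 180 it was -0.0290, with r of -0.128 on TPM and -0.0374 in limma.

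With the heat shock factor, the rho of HSP90 over 180 was 0.0540 (r = 0.0854 on TPM, 0.0112 in limma), and that of the small heat shock protein was 0.0190 over 180 (r = 0.157 on TPM, 0.0449 in limma) and 0.0422 in label run 2. The factor and chaperonin 10, near 0 throughout, had a rho of 0.00929 with 5 principal components, 0.0589 up to 180 and 0.0582 with the block as a covariate. Their r on TPM was 0.0218 on the log2 scale, 0.0251 over 180, 0.0672 up to 180 and 0.0571 with the block, and in limma -0.00532 with scaling, -0.0179 by ranks, -0.0591 in label run 2, -0.0104 in label run 1 and -0.0313 over 180.

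Genes that limma called with the heat shock factor numbered 3556 with scaling, 924 with 5 principal components, 1 in label run 2 and 0 over 180, and list genes 5, 10, 0 and 0, and 12 with the block as a covariate. At an unadjusted p under 0.05, 7 list genes passed in label run 2, and 1608 genes with 4 list genes over 180. With HSP90 they numbered 13977 by ranks, 29 in label run 2, 17788 up to 180 and 327 over 180, and list genes 0 in label run 2 (1 at an unadjusted p under 0.05), 3 over 180 and 5 with the block. With the small heat shock protein they numbered 10701 in label run 2, 681 over 180 and 4355 with the block, and list genes 17 by ranks, 14 without 2 trees, 5 in label run 2, 18 up to 180, 1 over 180 and 4 with the block. With chaperonin 10 they numbered 1168 with 5 principal components, 11341 in label run 2 and 11872 over 180, and list genes 0 (2 at an unadjusted p under 0.05), 10 and 10.

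The number of genes above 0 TPM had an r of 0.15 with the heat shock factor without 2 trees, of 0.15 with the small heat shock protein on the log2 scale, and of 0.0126 and 0.0113 with chaperonin 10 on the log2 scale and without 2 trees. Up to 180, tree number had an r of 0.0311 with the heat shock factor and -0.0664 with chaperonin 10.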

Other observations

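Fe_g36608, annotated as an RNA-binding protein of the hnRNP kind, was noticed after its values were seen and lies outside the rule for named genes. It had an r of -0.62 with HSP90, -0.51 with the small heat shock protein, 0.41 with the heat shock factor and 0.12 with chaperonin 10 on log2(TPM + 1) across 182 trees (limma adjusted p = 4.03e-18, 2.71e-11, 1.76e-06 and 0.141). Its r with HSP90 was -0.60 in trees numbered over 180 and -0.57 in trees numbered up to 180, and its r with chaperonin 10 was -0.40 in trees over 180 and 0.37 in trees up to 180.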
